A study of Mus musculus with 10 samples.

Results

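Neural progenitor genes were followed in mouse embryonic stem cells exposed to retinoic acid. The 9 genes were chosen by symbol: Sox1, Sox3, Pax6, Pax3, Zfp521, Zic1 and Nes as genes of the early neural plate, and Neurog2 and Sox11 as neurogenic genes, a division in which the place of Sox11 was chosen here. All 9 were found among the 52636 gene identifiers of the count tables. The set is called one of transcription factors, and 8 of the 9 encode such factors, whereas Nes encodes nestin, an intermediate filament protein. WT cells were compared with CBE-KO cells, both labelled as the E14 line, in which a site bound by CTCF, an organizer of chromatin loops, was deleted. Both groups had been taken out of medium with LIF and inhibitors of MEK and GSK and given retinoic acid, at a dose of 2 that the labels write in µm, read here as µM, for 24 h, and each was represented by 2 RNA-seq libraries. The labels do not say how many clones the CBE-KO cells came from, nor that the libraries came from separate cultures, so p-values measure the spread between these libraries, which may be technical. No untreated library was compared.

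As background, retinoic acid, made from vitamin A, binds nuclear receptors and pushes embryonic stem cells out of self-renewal, often towards neural fates with posterior character. Neural fate is laid down in steps. Factors of the SoxB1 family (Sox1, Sox2, Sox3), Zic factors and Zfp521 accompany entry into the neural plate, Pax6 and Pax3 then mark progenitors along the dorsal to ventral axis, and proneural factors such as Neurog2 commit single progenitors to become neurons. Sox11, of the SoxC family, acts with its relatives in progenitors that are leaving the cycle to become neurons.

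The 4 libraries held 14108038 to 15632960 counts, so that 3 counts, taken as the floor of measurement, corresponded to 0.185 to 0.218 CPM (counts scaled to library size, with trimmed-mean or TMM factors). Replicates differed by more than sampling noise (chi-square per degree of freedom 2.67 for WT and 2.23 for CBE-KO) and by less than libraries of different groups did (14.0 or more). The removed element is noncoding and its loss could not be read from gene counts. The groups also differed in Y-linked genes: Eif2s3y had 3 and 5 counts in WT against 888 and 779 in CBE-KO, so the shared line rests on the labels alone, and the loss of the element cannot be told apart from such other differences between the cells. In the quasi-likelihood test of edgeR, with a threshold of 0.05 on the adjusted p, 6895 of 16005 tested genes (43.1%) differed, 21.6% of all tested genes being higher in CBE-KO and 21.5% lower.

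Among the neural progenitor genes, 5 were higher in CBE-KO (Sox1, Sox3, Pax6, Zfp521 and Sox11), Nes did not pass, and Pax3, Zic1 and Neurog2 had too few counts to be tested. Of the 7 early neural plate genes, 5 were tested and 4 rose. Of the 2 neurogenic genes, Sox11 was tested and rose, by a log2 fold change between those of Sox3 and Pax6. Against the background of 21.6% of tested genes that were higher, these are counts over 6 tested members and carry no test of their own. Zfp521 and Pax6 passed the filter on low counts through their CBE-KO libraries alone, so their entry into the test already required a high level there. The same holds for Pax9, Nr2f1, Nr2f2, Pou3f3, Ptn, Otx1, Hoxc6, Isl1, Gfap and Kdr among the other genes named. Atoh1 and Hes3 passed it through WT alone. Bulk RNA cannot tell a larger share of cells expressing a gene from more RNA per cell.

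**Figure D1:**
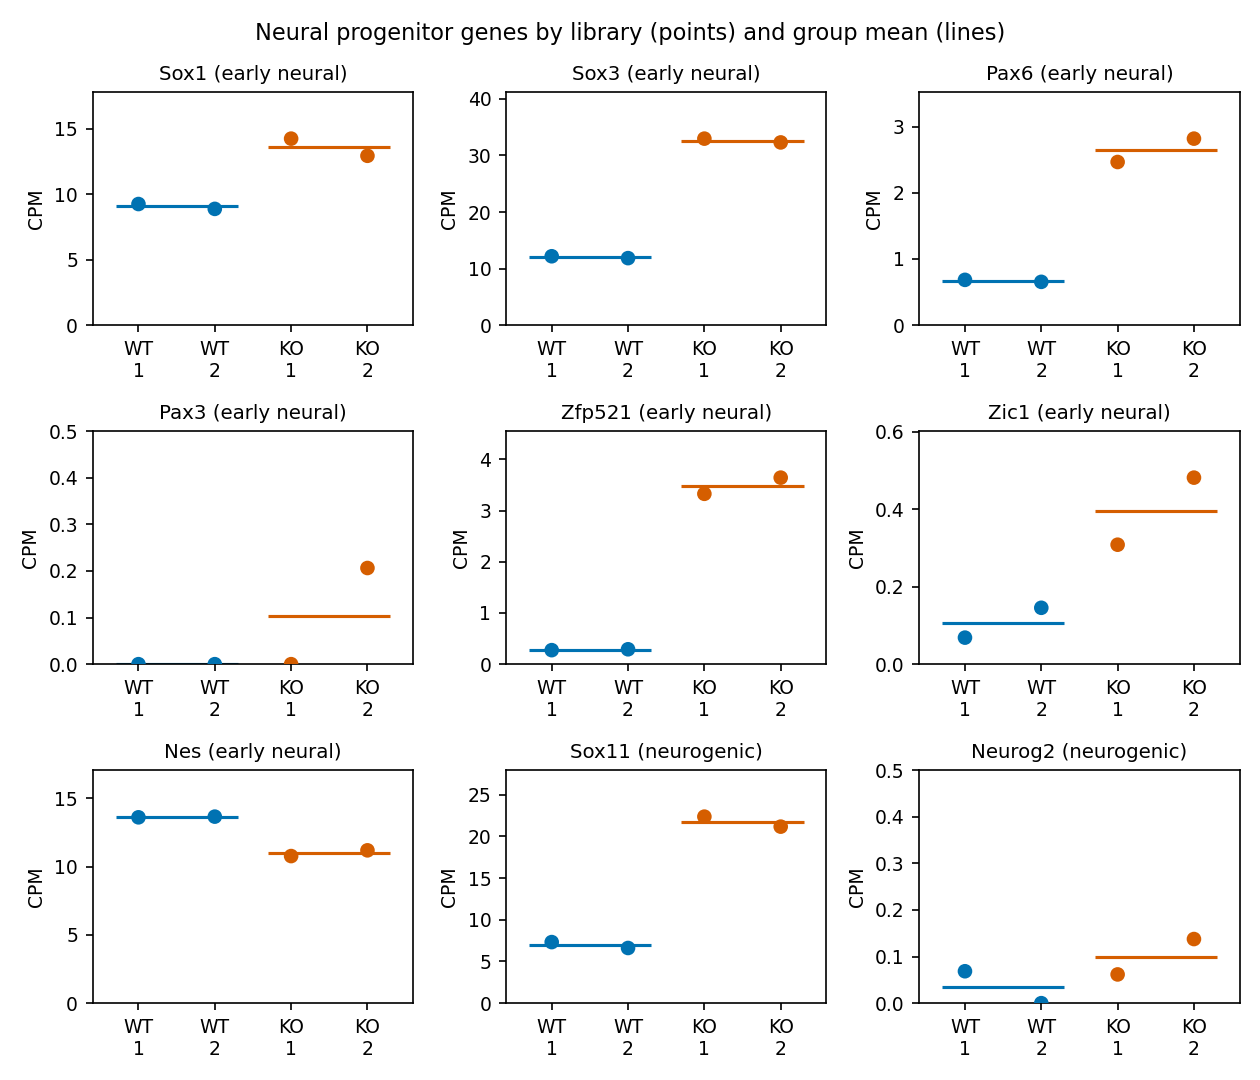
Expression of the 9 genes in CPM (TMM-scaled, linear axes from 0, a separate scale for each gene) in the 2 WT (blue) and 2 CBE-KO (orange, KO) libraries; points are libraries and lines are group means. Sox1, Sox3, Pax6, Zfp521 and Sox11 sit higher in both CBE-KO libraries and Nes sits lower, while Pax3, Zic1 and Neurog2 stay under 0.5 CPM throughout.

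Promoter sequence is given as a description, and its part in the changes was not tested. RefSeq windows (GRCm38.p6, the assembly also called mm10, which the submitters' processing notes name) were found for 6 of the 9 genes, with 7 starts in all, Pax6 having a pair. Sox3 and Zfp521, which rose, and Pax3 had no window. The 250 bases before the start are printed 5′ to 3′ on the gene's strand for Sox1, Sox11, 1 start of Pax6 and Nes. The CCAAT box, a common promoter element, is in capitals on either strand (CCAAT or ATTGG), and the other motifs searched are not marked.
Sox1 chr8:12395269-12395518 (+): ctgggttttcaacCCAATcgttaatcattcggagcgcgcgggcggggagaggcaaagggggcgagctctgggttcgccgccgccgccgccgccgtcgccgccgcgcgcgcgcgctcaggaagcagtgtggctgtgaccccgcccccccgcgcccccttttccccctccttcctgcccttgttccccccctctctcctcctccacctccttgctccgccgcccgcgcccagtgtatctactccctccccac
Sox11 chr12:27342719-27342968 (-): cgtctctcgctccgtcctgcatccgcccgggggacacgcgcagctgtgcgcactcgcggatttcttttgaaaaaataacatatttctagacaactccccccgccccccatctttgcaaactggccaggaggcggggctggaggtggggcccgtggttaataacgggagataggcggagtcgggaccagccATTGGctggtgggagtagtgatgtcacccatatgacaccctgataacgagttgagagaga
Pax6 chr2:105668646-105668895 (+): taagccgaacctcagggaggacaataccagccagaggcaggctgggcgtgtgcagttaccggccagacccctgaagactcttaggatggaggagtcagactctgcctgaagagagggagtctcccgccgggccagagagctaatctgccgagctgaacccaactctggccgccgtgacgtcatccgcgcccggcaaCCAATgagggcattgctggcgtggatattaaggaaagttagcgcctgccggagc
Nes chr3:87970843-87971092 (+): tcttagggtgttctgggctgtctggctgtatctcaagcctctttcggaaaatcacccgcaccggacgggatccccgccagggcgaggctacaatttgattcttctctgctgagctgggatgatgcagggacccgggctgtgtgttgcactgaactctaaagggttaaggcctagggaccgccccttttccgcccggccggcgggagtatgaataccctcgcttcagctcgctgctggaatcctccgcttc
A CCAAT box was present before the starts of Sox1, Sox11, Zic1 and 1 of the 2 starts of Pax6, and in 33.8% of all 32851 such windows. It was not found before Nes or Neurog2. The retinoic acid receptor half-site AGGTCA, searched on both strands, was in none of the 7 windows and in 14.0% of all windows, and the paired form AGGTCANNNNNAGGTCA was in none of the 7 and in 0.00913% of all. A GC box (GGGCGG, both strands) was in 5 of the 7 windows and in 32.7% of all. The SOX core ACAAAG was in the other Pax6 window (16.5% of all), and the E-box CAGCTG before Sox11 (13.0% of all). These are matches of letters in a short window and describe neither binding nor distal elements.

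The SoxB1 genes gave the highest levels among the early neural plate factors that rose. Sox3 (ENSMUSG00000045179, chromosome X, 60891366 to 60893430), which marks the neural plate from its onset, was counted 178 and 163 times in WT against 535 and 470 times in CBE-KO. Both CBE-KO libraries, at 33.0 and 32.3 CPM, lay above both WT libraries, at 12.2 and 11.9 CPM. The log2 fold change was 1.44 with an SE of 0.10 (edgeR adjusted p = 5.20e-09). Sox1 (ENSMUSG00000096014, chromosome 8, 12395519 to 12399555), which appears as cells commit to neuroectoderm, was counted 135 and 122 times in WT against 231 and 188 times in CBE-KO. Its groups did not overlap either, and its change was the smallest of the 5, from 9.06 ± 0.262 to 13.6 ± 0.928 CPM (SD, n = 2 each), or 0.58 on the log2 scale (SE 0.14, edgeR adjusted p = 0.00290). Sox1 did not pass in DESeq2 (0.57, adjusted p = 0.0541), a test that called 24.7% of the genes it adjusted over. The noncoding Sox1ot overlaps Sox1 in the RefSeq table and had 2 to 8 counts per library.

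Sox2, the SoxB1 member that embryonic stem cells already express for pluripotency, moved the other way, from 347 and 327 CPM in WT to 268 and 263 CPM in CBE-KO (log2 fold change -0.35 with an SE of 0.05, edgeR adjusted p = 1.77e-05). The ratio of 2 genes within a library does not depend on how libraries are scaled. Per 100 Sox2 counts, WT libraries held 3.51 and 3.62 Sox3 counts and both CBE-KO libraries 12.3, a 3.45-fold difference of means. Per 100 Sox2 counts, Sox1 had 2.66 and 2.71 in WT and 5.32 and 4.91 in CBE-KO. The Sox genes of these families have no introns, so their levels can be set side by side per kilobase of the RefSeq gene. On that scale Sox2 made up 94.5% and 94.4% of the SoxB1 level in WT and 84.8% and 85.0% in CBE-KO, while Sox3 went from 3.96% and 4.08% to 12.5% and 12.5%. Sox2 thus remained the most abundant SoxB1 gene in all 4 libraries, followed by Sox3 and then Sox1, at means of 108, 15.8 and 3.36 CPM per kilobase in CBE-KO. An exact permutation test of 2 against 2 libraries cannot go below p = 0.333, so none is given for these ratios.

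**Figure D2:**
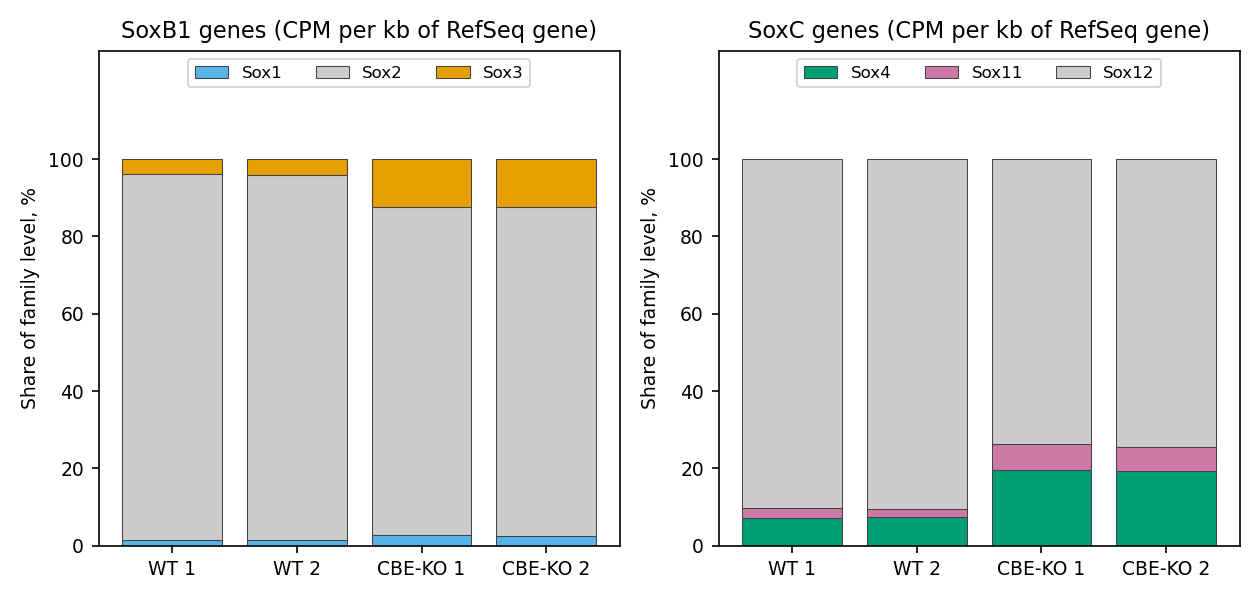
Share of each gene in the summed level (CPM per kilobase of RefSeq gene, %) of the SoxB1 family (left) and the SoxC family (right), with 1 bar per library. Sox3 takes 12.5% of the SoxB1 level in both CBE-KO libraries against about 4% in WT (3.96% and 4.08%), and Sox4 and Sox11 take larger shares of the SoxC level in both CBE-KO libraries.

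Pax6 and Zfp521 had low levels in WT and higher ones in CBE-KO. Zfp521 (ENSMUSG00000024420), a zinc finger factor known to promote the step from epiblast to neural progenitor, was counted 4 and 4 times in WT against 54 and 53 times in CBE-KO. It was the largest change among the tested members, from 0.282 ± 0.0121 to 3.48 ± 0.223 CPM (SD, n = 2 each), or 3.59 on the log2 scale (SE 0.41, edgeR adjusted p = 1.93e-06). With 8 counts in all of WT the size of the change is loosely bounded, and the ratio of summed counts was 12.3 with a 95% exact interval of 6.03 to 29.3 that covers counting error alone. Its paralogue Zfp423, named here after its values were seen, fell from 70.2 and 70.9 to 55.8 and 58.9 CPM (log2 fold change -0.30 with an SE of 0.06, edgeR adjusted p = 0.000884).

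Pax6 (ENSMUSG00000027168, chromosome 2, 105668896 to 105698410), a paired-box factor of neural and eye progenitors, was counted 10 and 9 times in WT against 40 and 41 times in CBE-KO. The groups did not overlap, at 0.670 ± 0.0213 and 2.64 ± 0.250 CPM (SD, n = 2 each), and the log2 fold change was 1.96 with an SE of 0.37 (edgeR adjusted p = 0.000337). Elp4 overlaps the end of Pax6 in the RefSeq table and did not pass (log2 fold change -0.08 with an SE of 0.08, edgeR adjusted p = 0.490), and Pax6os1, at the other end, had no counts. No source used here says whether strand was used when reads were counted, so reads where these genes overlap cannot be assigned with certainty. Of the other 7 Pax genes, 3 were tested and 1 passed, beside 43.1% of all tested genes. This was Pax9, a factor of pharyngeal endoderm and somites, counted 2 and 0 times in WT against 18 and 13 times in CBE-KO. The ratio for Pax9 was 14.3 (95% exact interval 3.63 to 123, counting error).

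Pax3 and Zic1, which mark the dorsal neural plate and its border, were at or near the floor. Pax3 (ENSMUSG00000004872) had no count in 3 libraries and 3 counts in the second CBE-KO library, so no fold is given. Zic1 (ENSMUSG00000032368) was counted 1 and 2 times in WT against 5 and 7 times in CBE-KO, a ratio of summed counts of 3.69 with a 95% exact interval of 0.995 to 20.3. Both CBE-KO libraries lay above both WT libraries, but a difference of this size was not detectable at this depth: without the filter on low counts, the edgeR adjusted p of Zic1 was 0.296. Zic4, which overlaps Zic1, had 0, 0, 1 and 1 counts. The Zic genes that are active in pluripotent cells had levels far above the floor and none was higher in CBE-KO. Zic5 fell by 0.43 on the log2 scale (edgeR adjusted p = 0.000333). Zic2 had 52.7 and 53.0 CPM in WT and 49.6 and 49.3 in CBE-KO and did not pass (log2 fold change -0.10 with an SE of 0.07, edgeR adjusted p = 0.274), and its sign turned with library totals as the scaling (0.0080). Over all SoxB and Zic relatives and Zfp423, 8 genes, 6 were tested, none passed as higher and 4 passed as lower. Beside these counts, 21.6% of all tested genes were higher and 21.5% lower.

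Nes (ENSMUSG00000004891, chromosome 3, 87971093 to 87980451), the intermediate filament gene used as a progenitor marker, was counted 199 and 188 times in WT against 175 and 163 times in CBE-KO. Both CBE-KO libraries, at 10.8 and 11.2 CPM, lay under both WT libraries, at 13.6 and 13.7 CPM, but the difference did not pass (log2 fold change -0.31 with an SE of 0.13, edgeR adjusted p = 0.0687). Nes did not follow the direction of Sox3 within libraries: per 100 Nes counts, WT libraries held 89.5 and 86.7 Sox3 counts and CBE-KO libraries 306 and 288. Vim, the filament gene that nestin assembles with, fell from 200 and 196 to 148 and 149 CPM (log2 fold change -0.41 with an SE of 0.05, edgeR adjusted p = 2.38e-06), and the ratio of Nes to Vim counts stayed between 6.83 and 7.50 per 100 in all 4 libraries. Of 11 intermediate filament genes listed beside Nes, all tested, 4 rose and 3 fell in edgeR. For all tested genes the shares were 21.6% higher and 21.5% lower. The median log2 fold change of the 11 was 0.07 against 0.0067 for all tested genes. In DESeq2 1 was higher and 2 lower, without the first CBE-KO library 2 were higher and 2 lower, and without the second WT library 2 were higher and 3 lower. Nefh, a neurofilament, fell by 1.06 on the log2 scale (edgeR adjusted p = 3.77e-08), and Gfap, known from astrocytes, rose from 7 and 3 counts to 36 and 42 (log2 fold change 2.82 with an SE of 0.45, edgeR adjusted p = 7.62e-05), a change of 3.49 without the first WT library and 2.38 without the second. Gfap passed the filter through its CBE-KO libraries alone. Des, a muscle filament, was lower in edgeR (-0.50, adjusted p = 0.00577) but failed the threshold in DESeq2 (adjusted p = 0.0557) or without the first CBE-KO library (edgeR adjusted p = 0.0501).

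**Figure D3:**
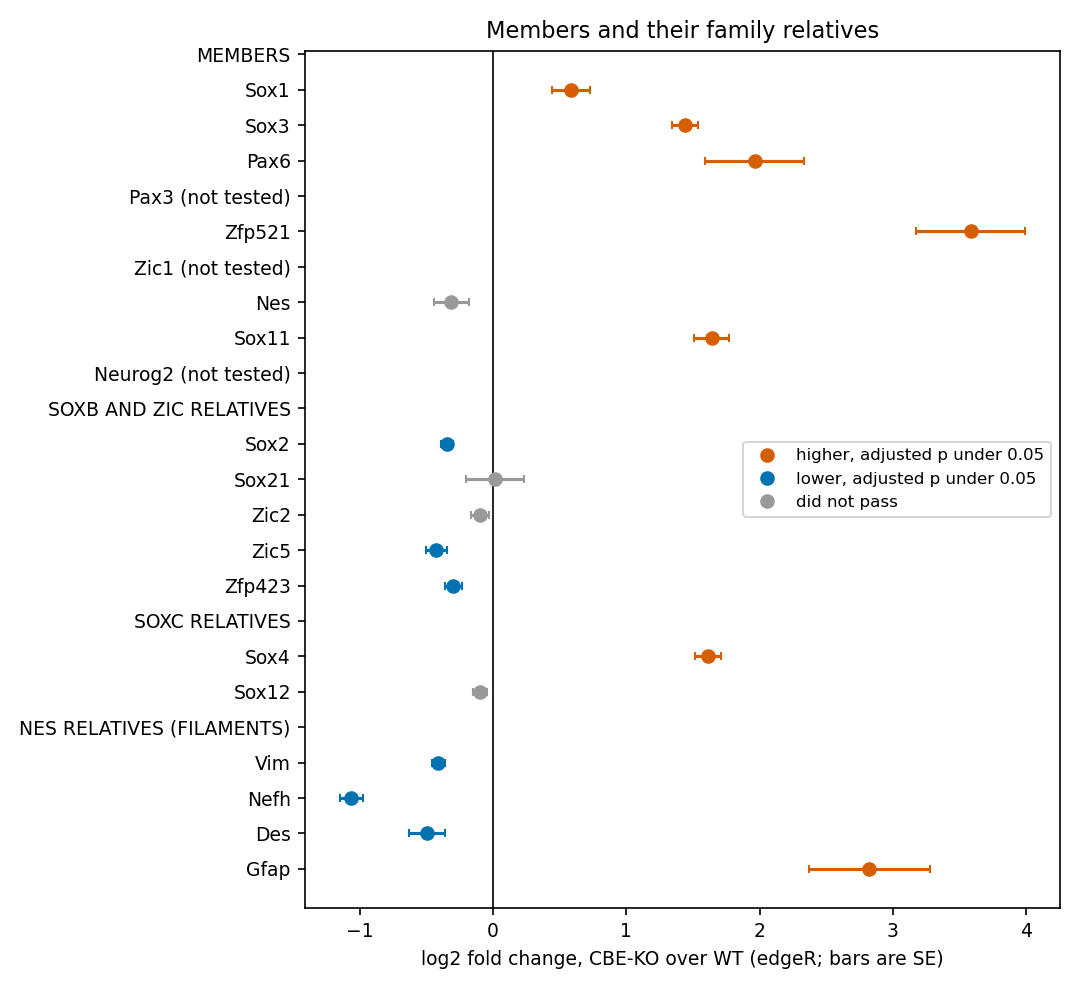
Log2 fold change (CBE-KO over WT) with its SE for the 9 genes and for relatives of their families, from edgeR; orange passed as higher, blue passed as lower and gray did not pass, and genes without a point were not tested. Sox1, Sox3, Pax6, Zfp521, Sox11, Sox4 and Gfap passed and lie to the right of 0, while Sox2, Zic5, Zfp423, Vim, Nefh and Des lie to the left.

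Of the neurogenic genes, Sox11 had enough counts for a test and Neurog2 did not. Sox11 (ENSMUSG00000063632, chromosome 12, 27334268 to 27342718) was counted 107 and 91 times in WT against 363 and 308 times in CBE-KO. Its groups did not overlap, at 6.97 ± 0.500 and 21.8 ± 0.848 CPM (SD, n = 2 each), and the log2 fold change was 1.64 with an SE of 0.13 (edgeR adjusted p = 3.20e-08). Neurog2 (ENSMUSG00000027967, chromosome 3, 127632733 to 127635636), the proneural factor of this set, had 1, 0, 1 and 2 counts in the 4 libraries, at or under the floor in both groups, so no fold is given and no difference was detectable at this depth.

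The SoxC relatives of Sox11 differed from each other. Sox4 rose much as Sox11 did, from 11.8 and 12.4 to 36.9 and 37.4 CPM (log2 fold change 1.61 with an SE of 0.10, edgeR adjusted p = 7.55e-10). Sox12, the most abundant of the 3, had 139 and 142 CPM in WT and 129 and 134 in CBE-KO and did not pass (log2 fold change -0.10 with an SE of 0.05, edgeR adjusted p = 0.123), its sign turning with library totals (0.0059). Per kilobase, Sox11 made up 2.49% and 2.21% of the SoxC level in WT and 6.71% and 6.18% in CBE-KO, and Sox4 went from 7.12% and 7.34% to 19.5% and 19.3%. Sox12 made up 73.8% and 74.5% of it in CBE-KO.

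Among other proneural and commitment genes, the share that was higher was near the 21.6% of all tested genes. Of 28 listed, 14 were tested, 3 passed as higher (Sox4, Isl1 and Onecut2, the last named after its values were seen) and 4 as lower, with a median log2 fold change of -0.032 that turned positive with library totals (0.072) or without the first CBE-KO library (0.066). The proneural factor Neurog1 (6, 2, 5 and 10 counts) overlapped between groups and was not tested. Atoh1, another proneural factor, was counted 17 and 17 times in WT against 6 and 6 times in CBE-KO (log2 fold change -1.60 with an SE of 0.49, edgeR adjusted p = 0.0142), but failed the threshold in DESeq2 (adjusted p = 0.181) or with any 1 library left out (edgeR adjusted p from 0.0754 to 0.117). Isl1, a factor of motor and sensory neurons, was counted 9 and 7 times in WT against 42 and 16 times in CBE-KO (log2 fold change 1.71 with an SE of 0.48, edgeR adjusted p = 0.00817). Without the first CBE-KO library Isl1 had a log2 fold change of 0.95 (edgeR adjusted p = 0.329), and it did not pass in DESeq2 (adjusted p = 0.0920). Without the first WT library 2 genes of the list, not 4, passed as lower.

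Of 17 genes of neuronal structure, 14 were tested, 3 rose and 5 fell, with a median log2 fold change of -0.19. The share that rose was near that of all tested genes (21.6% higher, 21.5% lower). Tubb3, the neuronal tubulin, fell from 74.3 and 64.5 to 40.4 and 41.2 CPM (log2 fold change -0.77 with an SE of 0.08, edgeR adjusted p = 3.30e-07), and the number of Sox11 counts per 100 Tubb3 counts went from 9.86 and 10.3 to 55.4 and 51.4. Dpysl3, which acts on the growth cone, rose from 9.17 and 9.02 to 32.5 and 36.3 CPM (log2 fold change 1.92 with an SE of 0.11, edgeR adjusted p = 4.23e-10), and Gap43, also of the growth cone, rose by a log2 fold change of 1.18 (edgeR adjusted p = 1.74e-05). Rbfox3, a marker of mature neurons, was lower in edgeR (-1.14, adjusted p = 0.0216) but did not pass in DESeq2 (adjusted p = 0.178), nor without the second WT library (edgeR adjusted p = 0.106) or the second CBE-KO library (0.204).

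Genes known to restrain neurogenesis were compared with these. Of 9 listed, 8 were tested, 5 passed as higher and 2 as lower, with a median log2 fold change of 0.40. Among all tested genes, the shares were 21.6% higher and 21.5% lower. The 2 that fell, both named after their values were seen, were Rest (-0.21, edgeR adjusted p = 0.00201) and Hes3 (-1.79, edgeR adjusted p = 0.0196). Hes3 had 15 and 11 counts in WT against 5 and 3 in CBE-KO. With DESeq2, Rest stayed under the threshold (adjusted p = 0.00190), whereas Hes3 lay above it (0.211). Id2, an inhibitor of proneural factors, rose from 20.6 and 24.3 to 74.3 and 82.4 CPM (log2 fold change 1.80 with an SE of 0.09, edgeR adjusted p = 4.24e-11), and Id3 rose by 0.72 (edgeR adjusted p = 4.25e-07). Id4 passed in edgeR (0.95, adjusted p = 0.0250) and not in DESeq2 (adjusted p = 0.239), nor without the first WT library (edgeR adjusted p = 0.173), the first CBE-KO library (0.120) or the second (0.0762). The number that passed as lower was 1 in DESeq2, with library totals as the scaling, and with each library left out.

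Of 26 other neural progenitor genes, 19 were tested, 12 rose and 3 fell in edgeR, beside 21.6% higher and 21.5% lower among all tested genes; in DESeq2 8 rose and 2 fell. Of the 12, 4 (Pou3f3, Nr2f1, Nr2f2 and Ptn) passed the filter on low counts through CBE-KO alone and had to be high there to be tested. Nr2f1, a nuclear receptor of early neural tissue that responds to retinoic acid, was counted 1 and 0 times in WT against 19 and 22 times in CBE-KO, a ratio of 37.8 (95% exact interval 6.41 to 1528, counting error). Cxcr4, a chemokine receptor of migrating progenitors and of endoderm, rose from 17 and 9 counts to 91 and 69 (log2 fold change 2.49 with an SE of 0.31, edgeR adjusted p = 5.03e-06). Ptn, a growth factor, had 6 and 5 counts against 28 and 17 and passed in edgeR (adjusted p = 0.00462), not in DESeq2 (adjusted p = 0.0914) or without the first CBE-KO library (edgeR adjusted p = 0.105).

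Genes that mark positions along the neural plate were read next to the members. Of 16 forebrain and midbrain genes, 6 were tested and 5 passed as higher, beside 21.6% of all tested genes. Of the 5, 2 passed the filter on low counts through CBE-KO alone. Rax was tested and did not pass (log2 fold change -0.33, edgeR adjusted p = 0.660). Without the filter on low counts, all 16 were tested, 8 passed as higher and Emx2 alone as lower. In that setting 6906 of 29243 genes passed. Emx2 was counted 10 and 7 times in WT against 1 and 1 in CBE-KO. Hesx1 had 8 and 5 counts against 3 and 0 and did not pass there (edgeR adjusted p = 0.152). Summed levels were 11.9 and 9.60 CPM in WT and 18.9 and 19.4 in CBE-KO. Otx1 was counted 0 and 3 times in WT against 24 and 23 times in CBE-KO, a ratio of 14.4 (95% exact interval 4.65 to 72.5). In DESeq2 2 genes of this list passed, Otx1 among them. Lhx2 (1.00) and Otx2 (0.72) passed in edgeR (adjusted p = 0.0123 and 0.0354) and not in DESeq2 (adjusted p = 0.161 and 0.282). With a library left out, the number of this list that passed was 5 without the first WT library, 3 without the second, 2 without the first CBE-KO library and 4 without the second. Lhx2 did not pass without the second WT (edgeR adjusted p = 0.0722) or the first CBE-KO library (0.118), and Otx2 without the second WT (0.151), the first CBE-KO (0.105) or the second CBE-KO library (0.145).

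Of 19 hindbrain and spinal cord genes, 15 were tested, 8 rose and 1 fell in edgeR. For comparison, 21.6% of all tested genes were higher and 21.5% lower. In DESeq2 7 genes of this list rose and 1 fell. Summed levels were 375 and 385 CPM in WT and 550 and 585 in CBE-KO. Hoxc6 was counted 2 and 2 times in WT against 58 and 47 times in CBE-KO, a ratio of 24.2 (95% exact interval 9.17 to 90.4), and Hoxa3 rose from 17.3 and 16.8 to 41.7 and 45.0 CPM. Gbx2, a factor of the anterior hindbrain that is also active in stem cells, fell from 28.9 and 29.4 to 9.86 and 10.0 CPM (log2 fold change -1.55 with an SE of 0.11, edgeR adjusted p = 5.77e-09). Of 17 genes of the neural plate border and neural crest, which Pax3 and Zic1 also mark, 13 were tested. In edgeR 6 passed as higher and 3 as lower (Gbx2, Foxd3 and Tfap2c), and in DESeq2 3 were higher and 3 lower. The median log2 fold change was 0.086 without the first CBE-KO library and 0.11 without the second, against 0.44 with all libraries. It was 0.56 without the first WT library and 0.45 without the second. Foxd3 fell from a mean of 42.0 to 23.5 CPM (log2 fold change -0.85, edgeR adjusted p = 7.89e-06). Tfap2c had a log2 fold change of -0.74 (edgeR adjusted p = 5.39e-05). Msx1, a border factor, rose from 29 and 38 to 92 and 76 counts (log2 fold change 1.20 with an SE of 0.24, edgeR adjusted p = 0.000641). Snai2, of the crest, passed in edgeR (adjusted p = 0.0320) and not in DESeq2 (adjusted p = 0.263), nor without the first WT (edgeR adjusted p = 0.249) or the first CBE-KO library (0.237).

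**Figure D4:**
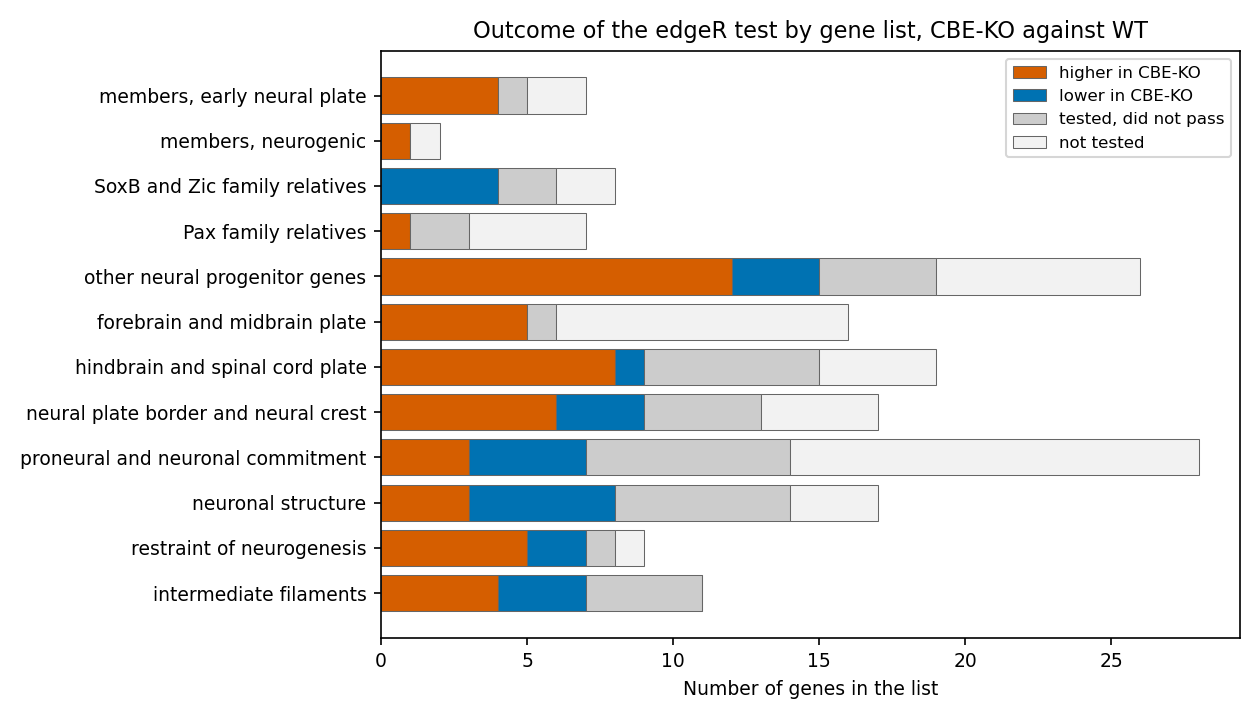
Number of genes in each list that passed as higher (orange) or lower (blue) in CBE-KO at an adjusted p under 0.05 in edgeR, were tested and did not pass (gray) or were not tested (pale); lists share some genes. Among the members 4 early neural plate genes and 1 neurogenic gene are higher and none is lower, while neuronal structure genes hold 3 higher and 5 lower.

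Markers of other cell types were read beside these levels. For the counts below, 21.6% of all tested genes were higher and 21.5% lower. The 10 naive pluripotency markers summed to 8227 and 7988 CPM in WT and 7978 and 8139 in CBE-KO. The 7 early neural plate genes summed to 35.5 to 36.1 CPM in WT and 63.6 to 64.1 in CBE-KO. Dppa5a alone held 3554 and 3440 CPM in WT and 4204 and 4305 in CBE-KO, so the naive sum hides falls of other markers. Dppa5a (0.28), Nanog (0.15) and Tfcp2l1 (0.16) passed as higher in edgeR, Tfcp2l1 not in DESeq2 (adjusted p = 0.109). Pou5f1, the core pluripotency factor, fell from 1084 and 972 to 817 and 815 CPM (log2 fold change -0.33 with an SE of 0.05, edgeR adjusted p = 4.71e-05), and Utf1 (-1.67), Klf4 (-0.49) and Zfp42 (-0.42) also fell, while 3 of the 10 passed as higher, 2 in DESeq2 and 1 without the first CBE-KO library. Of 6 markers of the post-implantation epiblast, 5 were tested, 3 fell and 1 passed as higher (Otx2, which did not in DESeq2, nor without the second WT or either CBE-KO library), and their sum went from 693 and 724 to 435 and 436 CPM. That sum was mostly made of 2 DNA methyltransferases. Dnmt3a held 482 and 508 CPM in WT and 333.9 and 334.5 in CBE-KO. Dnmt3b held 186 and 192 CPM in WT and 86.0 and 86.8 in CBE-KO. Dnmt3b and Pou3f1, a factor that leads into neural fate, fell by log2 fold changes of -1.13 and -1.10. Lef1 did not pass (0.81, edgeR adjusted p = 0.236). Fgf5, the defining epiblast marker, had 2, 2, 4 and 0 counts. Extraembryonic endoderm markers (10 of 10 tested, 4 higher, 1 lower) summed to 342 and 349 CPM in WT and 355 and 356 in CBE-KO. Of these Sox7 (0.81) rose and Amn (-1.15) fell, and Dab2 (0.77) passed in edgeR and not in DESeq2 (adjusted p = 0.0934) or without the first CBE-KO library (edgeR adjusted p = 0.0816).

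Mesoderm, trophoblast and glial markers had low sums. Those of mesoderm (6 of 10 tested, 1 higher) summed to 18.3 to 18.5 CPM in WT and 20.8 to 21.1 in CBE-KO. The mesoderm gene that passed, Kdr (1.49), did not in DESeq2 (adjusted p = 0.229), nor without the first WT (edgeR adjusted p = 0.115), the second WT (0.0908) or the second CBE-KO library (0.287). Trophoblast markers (6 of 7 tested, 1 lower, Tfap2c at -0.74) summed to 39.2 to 40.0 CPM in WT and 30.8 to 31.1 in CBE-KO. Glial markers (5 of 7 tested, 2 higher, Gfap among them) summed to 15.5 to 16.4 CPM in WT and 21.7 to 22.5 in CBE-KO; 1 was higher in DESeq2, without the first WT library or without the first CBE-KO library. The part that any of these markers' cells have in the levels of the neural genes was not tested.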

How the data were processed

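RNA-seq of 4 libraries (2 WT, 2 CBE-KO) was used; 6 Capture-C samples were not analysed here. The authors deposited 1 table per library of raw counts per Ensembl gene, in whole numbers and not normalized. The submitters' processing notes list HISAT2 2.1.0, HTSeq 0.9.1, DESeq2 1.18.1, Bowtie2 2.3.1 and mm10 without roles; the use of strand and the treatment of reads matching several genes are not given in the sources used here. Groups and replicate numbers came from titles. Symbols were matched for 52403 identifiers.

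Genes were kept by filterByExpr (16005), scaled by TMM and tested with edgeR 4.0.16 (R 4.3.3), glmQLFit and glmQLFTest, two-sided, Benjamini-Hochberg over all tested genes, threshold 0.05; the script was tested on simulated counts. CPM use TMM library sizes, and SE is the log2 fold change over the root of F. Ratios of groups at or under 3 counts per library carry exact 95% binomial intervals, for counting error alone, since reads are not independent molecules. Zfp521, with 4 and 4 counts in WT, was given such an interval as well. Members and lists were chosen with earlier results of these data known. Named genes were the members, the 3 largest passing changes of each list whose higher group averaged 1 CPM or more, and fixed relatives and markers (Sox2, Zic2, Sox21, Sox4, Sox12, Neurog1, Tubb3, Vim, Otx2 and Pou5f1). Some genes that this rule takes are not reported here. Alternatives were DESeq2 1.42.0, other scalings and filters, robust moderation, stricter thresholds, a replicate block and leaving out each library.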

Additional observations from a re-analysis of the deposited data

How the results depend on the processing

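All 6 tested members kept their direction under the 12 alternatives, and 5 of the 6 kept their side of the threshold in all; Sox1 (0.58) had 0.57 in DESeq2, with an adjusted p of 0.0541. The number of changed genes, 6895, was 4146 in DESeq2, 42.6% of them higher against 50.2%, and 1383 when changes under 1 on the log2 scale were left out; 67.0% were higher with library totals, which moved the median of all genes to 0.11. With a library left out, where the lone library is taken to vary like the other group, 5492 to 6420 genes passed, as did 4 early neural plate genes and 1 neurogenic gene each time. Log2 fold changes then ranged from 0.51 to 0.65 for Sox1, 1.42 to 1.46 for Sox3, 1.87 to 2.06 for Pax6, 3.52 to 3.65 for Zfp521, 1.57 to 1.72 for Sox11 and -0.34 to -0.28 for Nes. With the replicate block, 7027 genes and the same counts of members passed; same-numbered libraries deviated with a correlation of 0.0346 and their number is not known to pair them. Zic2 (0.0080) and Sox12 (0.0059) turned sign with library totals, and Sox21 (0.014; edgeR adjusted p = 0.968) had 0.097 and -0.069 without the first and the second WT library. Without the filter, Pax3 and Neurog2 had edgeR adjusted p of 0.492 and 0.730. Depth limits Pax3, Zic1 and Neurog2.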
